A study of Rattus norvegicus with 10 samples.

Results

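The heavy chain CDR3s that hold at least 1 tryptophan (W) are described here, in the spleen repertoires of 10 rats. The CDR3 was taken as the residues between the conserved cysteine and the J anchor residue, so the anchor tryptophan that nearly all heavy chains carry is not part of it. Of 215200 distinct CDR3 amino acid sequences in productive reads of the 10 animals, 63871 (29.7%) held tryptophan. Counted once per animal in which they occurred, these were 65756 of 222901 unique CDR3s, and 61154 of them held 1 tryptophan, 4472 held 2 and 130 held 3. A read is 1 sequence left after the authors collapsed the sequenced copies by their Unique Molecular Identifier (UMI), a random tag given to each cDNA.

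All animals were Wistar littermates that were immunized in Freund's complete adjuvant and boosted 3 times in incomplete adjuvant. In the DNP group (5 animals), the immunogen was keyhole limpet hemocyanin to which dinitrophenyl (DNP) groups had been attached, and in the HuD group (5 animals), it was recombinant human HuD, a neuronal RNA-binding protein. RNA came from whole spleen suspensions, and the primers covered IgG, IgA, IgD, IgE and IgM, so antibody classes are mixed, the splenocyte label has no other marker gene to be checked against, and more cells of a clone cannot be told apart from more RNA per cell. No unimmunized animal or animal given the unmodified carrier was part of the comparison, so responses to the DNP group and to its carrier cannot be told apart.

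The CDR3 of the heavy chain is made where an IGHV, an IGHD and an IGHJ gene are joined, with bases trimmed and added at the joints, and it usually lies at the centre of the antigen-binding site. Tryptophan has the largest side chain of the amino acids, with a flat aromatic indole ring. Such rings can stack on the flat ring of a dinitrophenyl group, and tryptophan residues contact the hapten in known anti-DNP antibodies of the mouse. Some germline J genes also bring a tryptophan of their own into the CDR3, close to its end.

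The most-read tryptophan-holding CDR3 of each animal is given first, because their rank and the position of their tryptophan recur in the results. The one of DNP2, with 15 residues, IGHV4-2 and IGHJ2, is left out of the lines because of its length.
DNP1, IGHV3-1 and IGHJ2: ARWTRYFDY
DNP3, IGHV5-22 and IGHJ2: ARHVLPLRVWDY
DNP4, IGHV3-3 and IGHJ4: ARWPGYNPPYAMDA
DNP5, IGHV3-1 and IGHJ4: ARLRLEWEVRAMDA
HuD1, IGHV5-31 and IGHJ3: TARFDWFAY
HuD2, IGHV5-29 and IGHJ2: ARQNWPYYFDY
HuD3, IGHV2-6 and IGHJ3: ARGWERFAY
HuD4, IGHV5-25 and IGHJ2: ARHWGY
HuD5, IGHV2-13 and IGHJ3: TRTYGGYTSHWFAY

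In every DNP animal the most-read of all CDR3s held tryptophan, and in no HuD animal did it. The 5 leading CDR3s of the DNP animals had 4264, 2248, 3409, 2991 and 2077 reads in DNP1 to DNP5, which was 3.06%, 1.82%, 5.62%, 1.15% and 2.27% of the productive reads. In HuD1 to HuD5, the first CDR3 with tryptophan stood at rank 7, 3, 10, 3 and 5, with 1563, 1272, 1089, 2795 and 2472 reads. The 5 of 5 against 0 of 5 gave p = 0.00794 in Fisher's exact test (two-sided), for a rank that was chosen after the values were seen.

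The libraries held 60647 to 259834 productive reads, and DNP3 was the smallest. The Wilson 95% interval of the share with tryptophan in 1 animal was 0.886 to 2.32 percentage points wide over unique CDR3s and 0.374 to 0.779 points wide over reads. These intervals cover counting error only. The differences between DNP and HuD animals were tested with a two-sided exact permutation test over the 252 choices of 5 of 10 animals, whose smallest p is 0.00794. The differences between CDR3s with and without tryptophan were tested within animals by exact sign-flip permutation over 1024 sign patterns, whose smallest p is 0.00195.

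Over unique CDR3s, the share with tryptophan was 29.6%, 29.0%, 36.2%, 30.96% and 28.1% in DNP1 to DNP5, and 30.9%, 28.4%, 28.8%, 29.1% and 29.0% in HuD1 to HuD5. The groups overlapped, and DNP3 stood above all other animals. The means of 30.8 ± 3.21% in DNP and 29.2 ± 0.957% in HuD animals (SD, n = 5 each) differed by 1.56 percentage points, which was not past the threshold of 0.05 (exact permutation p = 0.397). When CDR3s 1 residue apart were joined, the difference turned to −1.02 points (exact permutation p = 0.0794).

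Over productive reads, the share in tryptophan-holding CDR3s was 43.9%, 34.3%, 60.3%, 43.0% and 33.5% in DNP1 to DNP5. In HuD1 to HuD5, it was 30.7%, 28.7%, 27.5%, 32.6% and 30.96%. The groups did not overlap, and the lowest DNP animal, DNP5, was above HuD4, the highest of its group. The means were 43.0 ± 10.8% and 30.1 ± 2.02% (DNP and HuD, SD, n = 5 each), a difference of 12.9 points (exact permutation p = 0.00794, 0.0147 after Benjamini-Hochberg adjustment over 13 comparisons of the immunogens). Several of these 13 comparisons were chosen after the values were seen. Without the 10 most-read CDR3s of each animal the difference was 6.70 points (exact permutation p = 0.0794), and without the 100 most-read it was 4.04 points (exact permutation p = 0.0397).

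**Figure D1:**
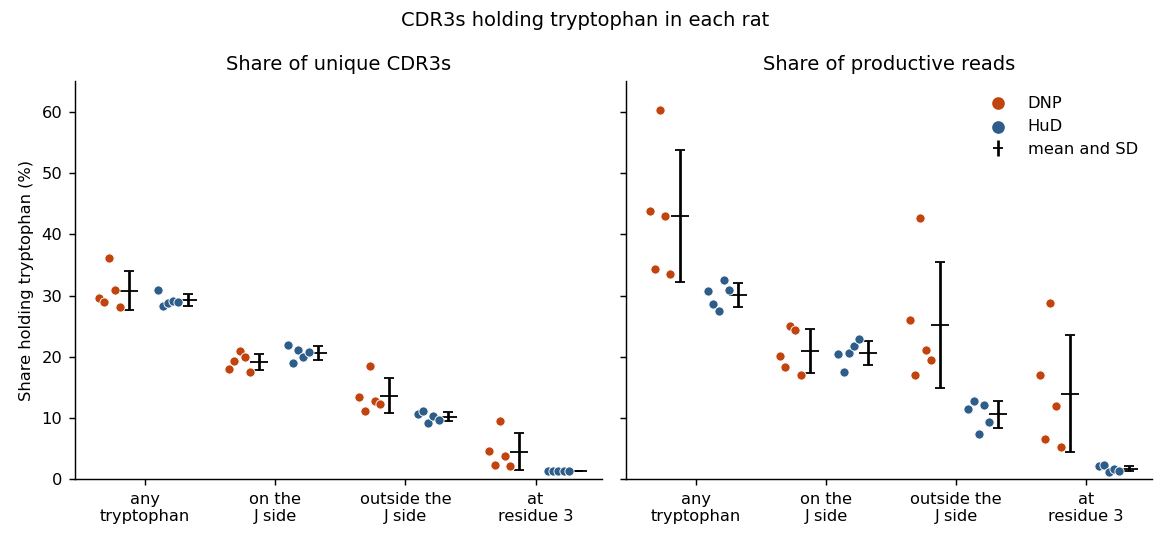
Share of unique CDR3s (left) and of productive reads (right) with tryptophan (%, vertical axes) in each rat, for any tryptophan, for tryptophan on the J side, outside the J side and at residue 3. Points are animals and bars are mean and SD (n = 5 each). The reads panel shows the groups apart for any tryptophan (43.0% in DNP and 30.1% in HuD animals on average) and side by side on the J side (20.9% and 20.7%).

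Where tryptophan lay in the CDR3 depended first on the IGHJ gene, the segment that forms the end of the CDR3. In CDR3s with tryptophan and IGHJ1, 97.8% had it at the fifth residue from the end, and 68.6% of all unique IGHJ1 CDR3s ended in WYFDF. With IGHJ3, 89.9% had it at the fourth residue from the end, and 34.2% of unique IGHJ3 CDR3s ended in WFAY. With IGHJ2 and IGHJ4, which commonly end in YFDY and VMDA, tryptophan was spread over many positions. These positions of IGHJ1 and IGHJ3 are called the J side here, a split that was chosen after the values were seen. Of the unique CDR3s with tryptophan, 67.2% had it on the J side, 38.5% had it elsewhere and 5.68% had both.

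The IGHJ genes differed between CDR3s with and without tryptophan in all 10 animals. IGHJ1 made up 32.1 ± 4.202% of the CDR3s with tryptophan and 2.21 ± 0.419% of those without (SD, n = 10 animals). IGHJ3 made up 38.8 ± 3.22% with and 13.2 ± 1.70% without tryptophan. IGHJ2 and IGHJ4 were lower with tryptophan, at 23.8 ± 4.96% against 63.4 ± 3.67% and at 5.35 ± 1.95% against 21.1 ± 4.00%. All 4 genes passed the test (percent called 100, exact sign-flip permutation p = 0.00195, unchanged by Benjamini-Hochberg adjustment over 4 genes). Since IGHJ1 and IGHJ3 CDR3s commonly hold tryptophan on the J side, this outcome follows largely from how the classes were defined. Of the unique CDR3s of IGHJ1, 86.2% held tryptophan, and of those of IGHJ3, 55.7%. In IGHJ2, the share was 16.3 ± 4.05% in DNP animals (13.2 to 23.2%) and 11.6 ± 0.480% in HuD animals (11 to 12.3%), without overlap (SD, n = 5 each, exact permutation p = 0.00794, adjusted 0.0318 over 4 genes).

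On the J side, the 2 immunogen groups overlapped, whereas they lay apart for tryptophan elsewhere in the CDR3. The share of reads with tryptophan on the J side was 20.1%, 18.3%, 24.97%, 24.3% and 17.0% in DNP1 to DNP5, and 20.5%, 17.6%, 20.6%, 21.7% and 22.9% in HuD1 to HuD5. The difference of 0.285 points was not past the threshold (exact permutation p = 0.897), and its sign turned without DNP3 (−0.719 points), DNP4 (−0.560 points) or HuD2 (−0.484 points). Over unique CDR3s, the J-side share was 19.1 ± 1.36% in DNP and 20.6 ± 1.15% in HuD animals (SD, n = 5 each, exact permutation p = 0.135).

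Outside the J side, tryptophan was in 26.1%, 17.0%, 42.7%, 21.0% and 19.5% of the reads of DNP1 to DNP5. It was in 11.5%, 12.8%, 7.40%, 12.2% and 9.41% of the reads of HuD1 to HuD5. The groups did not overlap, and the lowest DNP animal, DNP2, lay above the highest HuD animal, HuD2. The means of 25.3 ± 10.3% and 10.6 ± 2.22% (DNP and HuD, SD, n = 5 each) differed by 14.6 points (exact permutation p = 0.00794, adjusted 0.0147 over 13 comparisons). Over unique CDR3s, the values were 13.7 ± 2.87% and 10.2 ± 0.722% (DNP and HuD), also without overlap (exact permutation p = 0.00794). This difference over unique CDR3s depended on the processing and ran from 0.998 to 4.65 points over the alternatives. By reads, the difference was 8.98 points without the 10 most-read CDR3s of each animal and 5.92 points without the 100 most-read (exact permutation p = 0.00794 for both).

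Residue 3, counted from 1 at the IGHV end, had the largest difference of all positions and was chosen after the values were seen. It is the first residue after the alanine-arginine pair with which most IGHV genes end. Over reads, tryptophan at residue 3 was in 17.0%, 6.64%, 28.9%, 11.9% and 5.25% of DNP1 to DNP5, and in 2.12%, 2.29%, 1.25%, 1.65% and 1.41% of HuD1 to HuD5. DNP5, the lowest of its group, lay above HuD2, the highest of the HuD animals. The means were 13.9 ± 9.55% and 1.74 ± 0.448% (DNP and HuD, SD, n = 5 each), and the difference was 12.2 points (exact permutation p = 0.00794, adjusted 0.0147 over 13 comparisons). That adjustment does not cover the choice of residue 3 among the positions. Over unique CDR3s, the values were 4.65%, 2.31%, 9.61%, 3.88% and 2.27% in DNP1 to DNP5, and 1.34% to 1.44% in the HuD animals, a difference of 3.16 points (exact permutation p = 0.00794). The spread over the HuD animals was small, at an SD of 0.0361 points. The difference over unique CDR3s depended on the processing and ran from 1.09 to 4.26 points over the alternatives.

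Among the first 12 residues outside the J side, residue 3 was the only position at which the groups did not overlap by reads (1 of 12, percent called 8.33). After Benjamini-Hochberg adjustment over the 12 positions its exact permutation p was 0.0952. At residue 10, the reads with tryptophan averaged 2.37 ± 3.14% in DNP and 0.296 ± 0.134% in HuD animals (SD, n = 5 each, exact permutation p = 0.0317, adjusted 0.190), and the leading CDR3 of DNP3, ARHVLPLRVWDY, has its tryptophan there. The first tryptophan of a CDR3 lay at a relative position of 0.576 ± 0.0291 in DNP animals and 0.621 ± 0.00927 in HuD animals, where 0 is the IGHV end and 1 the IGHJ end (SD, n = 5 each, difference −0.0453, exact permutation p = 0.00794).

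**Figure D2:**
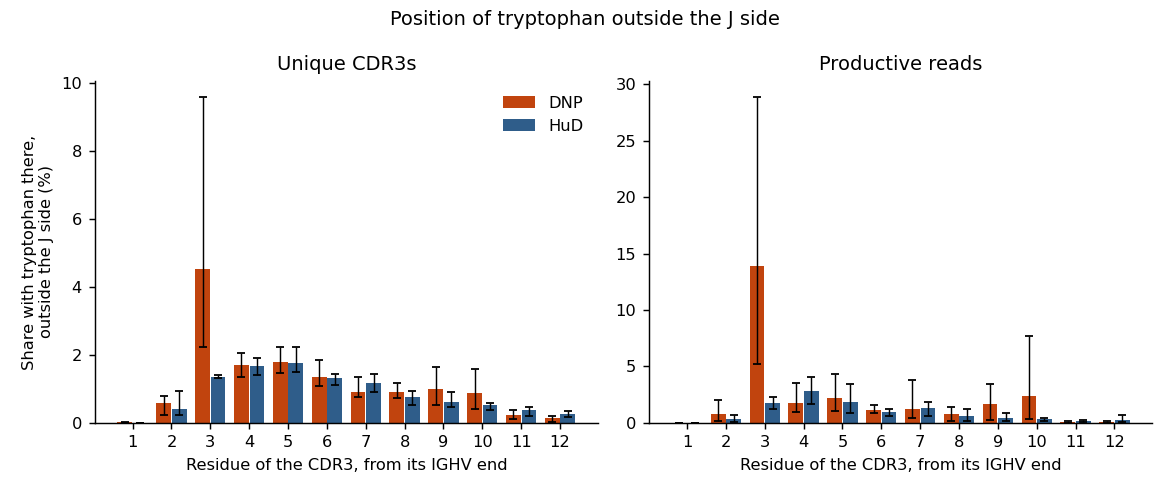
Share of unique CDR3s (left) and of productive reads (right) with tryptophan outside the J side (%, vertical axes) at each of the first 12 residues of the CDR3 (horizontal axes). Bars are means over 5 rats and whiskers run from the lowest to the highest animal. Residue 3 stands out in DNP animals, with 4.51% of unique CDR3s and 13.9% of reads.

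The same comparison was made for all 20 amino acids. Anywhere in the CDR3, tryptophan was the only one whose read shares did not overlap between the groups (1 of 20, percent called 5.00, adjusted p = 0.159 by exact permutation over 20 residues). Over unique CDR3s, it was glutamic acid that did not overlap (1 of 20, percent called 5.00), at 19.5 ± 1.61% in DNP and 23.02 ± 1.98% in HuD animals. At residue 3, tryptophan and glutamic acid did not overlap by reads (2 of 20, percent called 10), and glutamic acid was lower in DNP animals, at 4.10 ± 1.24% against 8.03 ± 1.65% in HuD animals. Over unique CDR3s at residue 3, tryptophan, glutamic acid and cysteine did not overlap (3 of 20, percent called 15.0). Adjusted over the residues, the p for tryptophan at residue 3 was 0.0794 by reads and 0.0529 by unique CDR3s (exact permutation, n = 5 each), so it did not pass this stricter reading.

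Arginine stood before the tryptophan outside the J side in 26.01% of cases in DNP animals and in 12.0% in HuD animals, over 12089 and 14213 tryptophan residues. The residue after it was most often glycine (18.1% in DNP and 17.4% in HuD animals) and aspartic acid (15.7% and 16.1%). The neighbour on the IGHV side thus had the larger gap between the groups, and these pooled shares were not tested.

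CDR3s with tryptophan were longer than those without. The mean length was 12.95 ± 0.427 residues with and 11.7 ± 0.329 without tryptophan (SD, n = 10 animals), and the difference within animals was 1.24 ± 0.373 residues, higher in 10 of 10 (exact sign-flip permutation p = 0.00195). DNP3 had the smallest difference, 0.314 residues. A longer CDR3 has more positions that can hold tryptophan, so a difference in this direction is in part built into the comparison. The 2 kinds of tryptophan depended on length in different ways. On the J side, the share of unique CDR3s with tryptophan was 0.680% at 5 residues, 19.8% at 12 residues and 44.6% at 20 residues. Outside the J side, it was 8.92 ± 1.83%, 16.5 ± 10.3% and 6.04 ± 4.74% at the same lengths (SD, n = 10 animals). At 12 residues, DNP3 stood at 44.5%, the other DNP animals at 12.0 to 19.1% and the HuD animals at 10.1 to 12.3%.

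**Figure D3:**
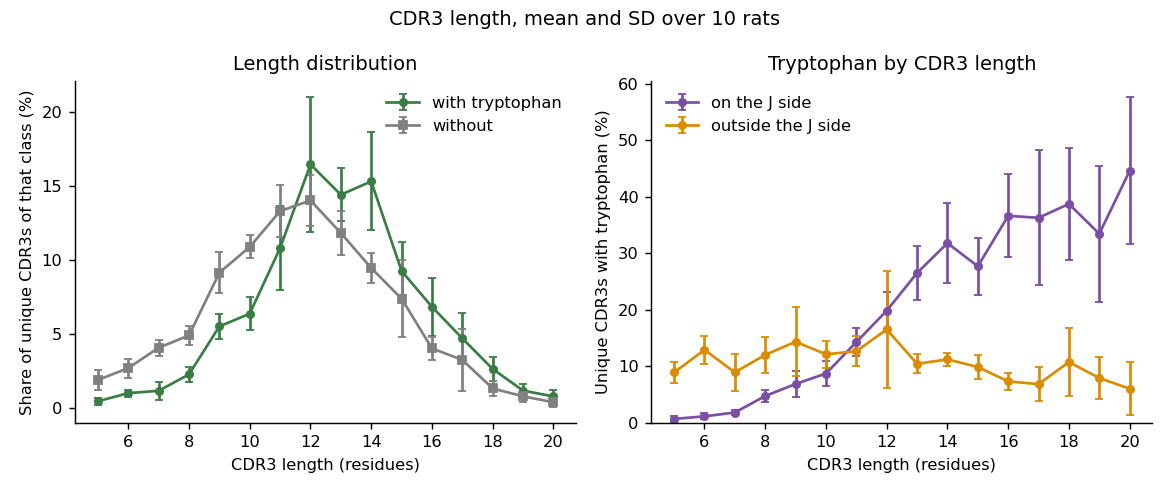
CDR3 length (residues, horizontal axes). Left, share of unique CDR3s of each length among those with and those without tryptophan (%). Right, share of unique CDR3s of each length with tryptophan on the J side and outside it (%). Points are means and bars SD over 10 rats. The J-side share is 0.680% at 5 residues and 44.6% at 20 residues, and the share outside the J side is 8.92% and 6.04% there.

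Expansion was read from the reads per CDR3. At least 2 reads were found for 26.6 ± 7.10% of the unique CDR3s with tryptophan and for 24.0 ± 5.51% of those without (SD, n = 10 animals). The difference within animals was 2.57 ± 2.04 points, higher with tryptophan in 9 of 10 (exact sign-flip permutation p = 0.00391). This difference was 3.96 ± 1.76 points in DNP and 1.19 ± 1.22 points in HuD animals (SD, n = 5 each), and the gap of 2.77 points passed the test (exact permutation p = 0.0238, adjusted 0.0344 over 13 comparisons). It did not pass without HuD3, at 2.45 points (exact permutation p = 0.0556).

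For tryptophan at residue 3, the immunogen groups lay apart in rarely and in often read CDR3s. Among CDR3s with 1 read, tryptophan at residue 3 was found in 3.99 ± 2.61% in DNP and 1.34 ± 0.0930% in HuD animals. Among CDR3s with 100 or more reads, it was found in 13.4 ± 6.81% and 2.14 ± 0.732% (DNP and HuD, SD, n = 5 each). For this position, the groups did not overlap in any of 5 classes of read number (exact permutation p = 0.00794 in each). When CDR3s 1 residue apart were joined, 17978 unique CDR3s became 11153 on average in DNP animals, and 26603 became 17251 in HuD animals. Whether rarely read CDR3s are variants of often read ones was not tested, so the 5 classes may not be independent. Any tryptophan was in 29.5 ± 2.71% of the CDR3s with 1 read in DNP and in 28.9 ± 1.00% in HuD animals (exact permutation p = 0.746), and in 43.99 ± 10.3% and 30.4 ± 2.02% of those with 100 or more reads (exact permutation p = 0.00794). On the J side, tryptophan was lower in DNP animals among CDR3s with 1 read, at 18.4 ± 1.31% against 20.4 ± 1.20% in HuD animals (exact permutation p = 0.0397, 0.198 adjusted over 5 classes). It was at 22.4 ± 5.73% in DNP and 20.4 ± 1.68% in HuD animals among CDR3s with 100 or more reads (exact permutation p = 0.508).

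Taking the most-read CDR3s of each animal, 80%, 50%, 90%, 80% and 30% of the 10 leading CDR3s of DNP1 to DNP5 held tryptophan. In HuD1 to HuD5, these were 20%, 20%, 10%, 40% and 20%. DNP5 lay below HuD4, and the other 4 DNP animals lay above all HuD animals. The difference was 44 points (exact permutation p = 0.0159, adjusted 0.0258 over 13 comparisons). Over the 100 leading CDR3s, the shares were 47.2 ± 11.9% and 31.4 ± 3.44% (DNP and HuD, SD, n = 5 each, exact permutation p = 0.0397), and the call was lost without HuD2 (p = 0.0794), HuD3 (p = 0.0714) or HuD5 (p = 0.0794). Outside the J side, the 100 leading CDR3s held tryptophan in 27.2 ± 6.18% of DNP and 11.4 ± 3.21% of HuD cases, without overlap (exact permutation p = 0.00794).

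**Figure D4:**
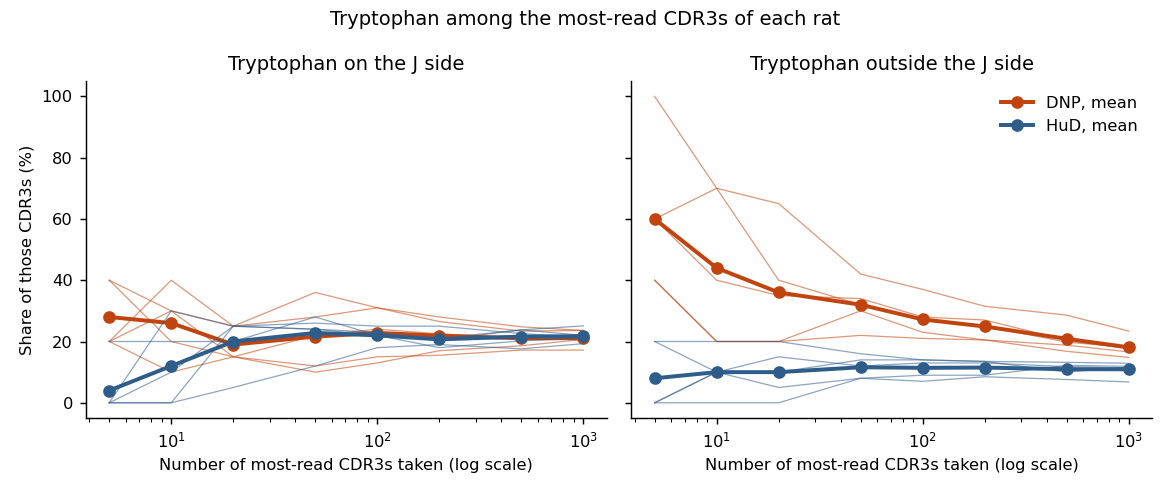
Share of the most-read CDR3s of each rat (%, vertical axes) that hold tryptophan on the J side (left) or outside it (right), by the number of most-read CDR3s taken (horizontal axes, log scale). Thin lines are animals and thick lines are group means. Outside the J side the mean of the 100 leading CDR3s is 27.2% in DNP and 11.4% in HuD animals.

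Among the 3 most-read tryptophan-holding CDR3s of each animal, tryptophan stood at residue 3 in 7 of 15 in DNP and in 1 of 15 in HuD animals. VRWNSGHFDY of DNP1 (3769 reads, IGHV5-22 and IGHJ2) was found in no other animal. In DNP3, ARWYNSGYYFDY had 2541 reads and ARWSSSHWYFDF had 1901 reads, both with IGHV5-22. The first of these was also found with 202 reads in DNP5, 6 in DNP4 and 1 each in HuD1 and HuD3. ARWSSSHWYFDF has another tryptophan at residue 8, on the J side. DNP4 had 2135 reads of ARWNIGTSTLDY (IGHV3-1 and IGHJ2). All of these hold tryptophan at residue 3. Others did not. ARLGWHGWFAY, the second of DNP5 (1553 reads, IGHV4-2 and IGHJ3), has tryptophan at residues 5 and 8, of which residue 8 is on the J side. The third of DNP2, with 17 residues, IGHJ1 and 1185 reads, has it at residue 13, also on the J side. The leading CDR3s of IGHV1-43 had it on the J side too. They were ARGGDGIWFAY in DNP1 (2582 reads), ARRRLPYWYFDF in DNP4 (2295 reads) and GSYYYRDWFAN in DNP5 (883 reads).

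In HuD animals, several leading CDR3s had tryptophan on the J side, as several of the DNP animals did. They included TRHGGLRNWFAY in HuD1 (1225 reads), ASLLGAPDWYFDF and VRLLGAPDWYFDF in HuD3 (944 and 924 reads), ARAGYLRDWYFDF in HuD4 (2045 reads) and VRQGYLRDWYFDF in HuD5 (1868 reads). The last of these and ARAGYLRDWYFDF come from different animals, share their last 10 residues and were both most often assigned to IGHV5-29 and IGHJ1. ARQRGPSWFAY in HuD4 (1802 reads) and TSPFRWFAY in HuD5 (1365 reads) have the IGHJ3 end. HuD2 had 816 reads of TTQWELYH, with tryptophan at residue 4, and 1130 reads of a CDR3 of 15 residues with tryptophan at residue 5. HuD1 had 1399 reads of ARWYYYDY (IGHV4-2 and IGHJ2), the one CDR3 among the leading 3 of a HuD animal with tryptophan at residue 3.

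The residue 3 tryptophan was frequent in IGHV3-1. Of the reads of this gene, 45.6%, 30.5%, 81.8%, 53.1% and 19.3% had it in DNP1 to DNP5, and 8.69%, 8.22%, 7.11%, 1.67% and 17.8% in HuD1 to HuD5. The groups did not overlap, but HuD5 came close to DNP5. The difference was 37.3 points (exact permutation p = 0.00794, adjusted 0.0147 over 13 comparisons, gene chosen after the values were seen). With the CDR3 lengths made equal, it was 13.6 points (exact permutation p = 0.0556). IGHV3-1 itself made up 11.1 ± 4.39% of the reads in DNP and 3.05 ± 0.918% in HuD animals (SD, n = 5 each, exact permutation p = 0.00794).

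In the other IGHV genes, tryptophan at residue 3 was in 13.8%, 1.26%, 24.1%, 6.58% and 4.13% of the reads of DNP1 to DNP5, and in 1.98%, 2.00%, 1.07%, 1.65% and 0.954% of HuD1 to HuD5. DNP2 lay among the HuD animals. The difference of 8.45 points had an exact permutation p of 0.0317, which became 0.0794 without HuD1 or HuD2, 0.0873 without HuD4 and 0.103 without HuD3 or HuD5. One of these genes was IGHV5-22, whose reads had tryptophan at residue 3 in 53.8%, 0.0875%, 46.9%, 20.7% and 37.4% of DNP1 to DNP5 and in at most 0.176% of any HuD animal, and DNP2 lay within the HuD range (exact permutation p = 0.0238). Of the reads of IGHV1-43, tryptophan at residue 3 was in 18.2 ± 11.8% in DNP and 1.57 ± 1.36% in HuD animals (SD, n = 5 each, exact permutation p = 0.0317), and DNP5, at 1.01%, lay within the HuD range of 0.325 to 3.68%. The gene itself made up 3.62 ± 2.39% of all reads in DNP and 0.519 ± 0.439% in HuD animals (exact permutation p = 0.0238).

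One group among the residue 3 sequences was a set of 9 residues that begins with ARW and ends with YFDY, with any residues at positions 4 and 5. They are shown because members of the same form were found in all 10 animals and were among the leading CDR3s of DNP1 and DNP2. The form was chosen after the values were seen. Of the reads with tryptophan at residue 3 in DNP animals, CDR3s of 9 residues of any form held 30.2 ± 5.75% and those of 12 residues 36.9 ± 22.5% (SD, n = 5).
Most read in DNP1: ARWTRYFDY
Found in all 5 DNP animals: ARWTYYFDY
Most read of the form in DNP4: ARWSDYFDY
Next in DNP4: ARWGDYFDY
Also in DNP4: ARWYNYFDY
Most read of the form in DNP2: ARWSRYFDY
In DNP3 and DNP4, with a second tryptophan: ARWVWYFDY
In 5 animals: ARWVYYFDY

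This form had 5072, 1725, 3901, 6295 and 727 reads in DNP1 to DNP5, and 2, 8, 4, 2 and 310 reads in HuD1 to HuD5. HuD5 stood apart from the other HuD animals, and it was still below the lowest DNP animal. As a share of productive reads, the means were 2.94 ± 2.23% in DNP and 0.0316 ± 0.0659% in HuD animals (SD, n = 5 each, exact permutation p = 0.00794). Without the most-read member of each animal they were 1.29% and 0.0133% (DNP and HuD, exact permutation p = 0.00794). The number of unique CDR3s of the form was 21, 17, 32, 33 and 7 in DNP1 to DNP5, and 1, 7, 3, 2 and 12 in HuD1 to HuD5, so HuD5 overlapped with DNP5 (exact permutation p = 0.0238). The form had 77 distinct members, and it was chosen after the values were seen. Their split between the groups was not set against that of all CDR3s with tryptophan and is not given.

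ARWTRYFDY had 4264, 54 and 559 reads in DNP1, DNP2 and DNP5 and 181 in HuD5. ARWTYYFDY had 262, 21, 1663, 2 and 112 reads in DNP1 to DNP5 and 36 in HuD5. The members of HuD5 were therefore in part the same sequences as in the DNP animals. ARWSDYFDY had 2025 reads in DNP4 and at most 12 in any other animal, and ARWGDYFDY (1387 reads) and ARWYNYFDY (1363 reads) were likewise nearly all in DNP4. ARWSRYFDY had 1272 reads in DNP2. ARWVWYFDY was split over DNP3 (608 reads) and DNP4 (492 reads). At residue 4, threonine held 40.0% and serine 21.5% of the form's reads in DNP animals.

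The form used IGHJ2 in at least 98.7% of its reads in every animal, and IGHV3-1 in 89.3 to 97.9% in DNP animals.

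**Figure D5:**
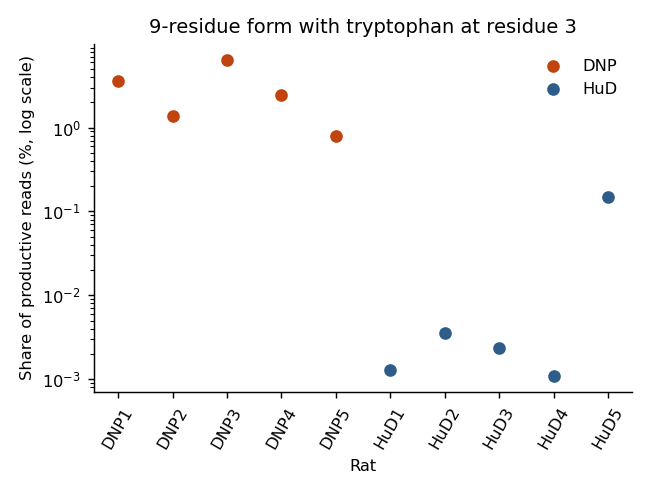
Share of productive reads (%, vertical axis, log scale) in the form of 9 residues with tryptophan at residue 3, with 1 point for each rat (horizontal axis). All DNP animals lie above all HuD animals, HuD5 is at 0.149% and the other HuD animals are between 0.00109% and 0.00356%.

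IGHV use by CDR3s with and without tryptophan was compared with edgeR's quasi-likelihood test with the animal as a block. Of 98 genes tested, 17 passed an adjusted p of 0.05 (percent called 17.3), 6 higher and 11 lower with tryptophan. IGHV6-8 was the furthest up among the genes with over 100 CDR3s, with a log2 fold change of 2.47 ± 0.223 (SE, adjusted p = 1.65e-18), and 59.96% of its CDR3s had tryptophan at residue 2. IGHV6-6 had 0.95 ± 0.163 (adjusted p = 1.96e-06), with 33.5% at residue 2. Both thus had tryptophan close to the IGHV end. IGHV5-35 (1.29), IGHV1-43 (0.77) and IGHV3-1 (0.59) were higher too, and IGHV7-2 had tryptophan in all of its 11 CDR3s. Among the lower genes were IGHV2S61 (−1.14), IGHV2-77 (−1.08), IGHV2-30 (−0.87), IGHV2-43 (−0.78) and IGHV4-2 (−0.56). The genes most used by CDR3s with tryptophan were IGHV5-25 (11.2% of them), IGHV5-31 (8.28%), IGHV5-20 (8.15%), IGHV5-22 (7.97%), IGHV5-29 (7.30%) and IGHV5-7 (7.19%), none of which passed this test. IGHV3-1 (5.76%), IGHV5S13 (5.23%), IGHV5S10 (3.19%) and IGHV1-43 (2.82%) followed.

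IGHD genes, which form the middle of the CDR3, were compared the same way, and 8 of 33 passed (percent called 24.2). IGHD5-1 was highest, at 7.59 ± 1.78% of CDR3s with and 2.94 ± 0.526% of those without tryptophan, higher in 10 of 10 animals (edgeR quasi-likelihood test, log2 fold change 1.49 ± 0.103, SE, adjusted p = 1.22e-19). Of its CDR3s, 36.5 ± 3.39% held tryptophan outside the J side, and in 26.9% of these the tryptophan stood in the triplet NWE and in 11% in DWE. IGHD4-4, IGHD4-6, IGHD4-2 and IGHD1-1 were also higher with tryptophan, by 0.84, 0.81, 0.57 and 0.52 on the log2 scale.

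Between the immunogens, 3 of 82 IGHV genes of tryptophan-holding CDR3s passed the edgeR test (percent called 3.66). IGHV1-43 was at 4.89 ± 3.00% of them in DNP and 0.750 ± 0.363% in HuD animals (log2 fold change 2.50 ± 0.539, SE, adjusted p = 0.0252). IGHV5S11 was at 1.08 ± 0.644% and 0.154 ± 0.0776% (2.62 ± 0.680, adjusted p = 0.0418). IGHV5-36 was at 0.00316 ± 0.00707% in DNP and 0.148 ± 0.111% in HuD animals (−4.80 ± 1.12, adjusted p = 0.0264). IGHV3-1 did not pass (1.20 ± 0.452, adjusted p = 0.0984). When each animal was left out in turn, the number of genes passing ran from 0 to 23, so these calls depend on which animals enter. The number was 0 without DNP1, DNP3, DNP4, HuD1 or HuD4 and 23 without DNP2.

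The other amino acids of these CDR3s were compared as well. Of the 19 other residues, 12 passed the within-animal test (percent called 63.2). Phenylalanine made up 10.3 ± 0.324% of the other residues in CDR3s with tryptophan and 5.49 ± 0.322% in those without (SD, n = 10 animals, exact sign-flip permutation p = 0.00195, adjusted 0.00530). Asparagine was at 4.06 ± 0.239% and 2.57 ± 0.177%. Aspartic acid, methionine, threonine and glycine were lower with tryptophan, by −1.37, −1.24, −1.07 and −0.84 percentage points, in 10 of 10 animals each. Among the common ends, those of IGHJ1, IGHJ2 and IGHJ3 hold phenylalanine and that of IGHJ4 holds methionine, and their part in these differences was not tested.

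Most CDR3s with tryptophan were private to an animal. Of the distinct ones, 97.9% were found in 1 animal only (97.4% of those without tryptophan), and 1330 in at least 2, 59 in at least 5 and 1 in all 10. The ones found in most animals are shown for their common ends and have 5 to 11 residues.
In 10 animals: ARHWYFDF
In 9 animals: ARWDY
In 9 animals: ARHNNYWYFDF
In 8 animals: ARQDWYFDF
In 8 animals: AWTGY
In 8 animals: ARGDWFAY
In 7 animals: ARDWYFDF
In 7 animals: ARYNNYWYFDF
In 7 animals: ARGWYFDF

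These shared CDR3s were rarely read, and 6 of the 9 have the IGHJ1 end. ARHWYFDF had 2 to 6 reads in each animal and 34 in all. ARWDY had 113 reads, 78 of them in HuD5, and ARDWYFDF had 136, of which 75 were in HuD2 and 33 in DNP1. AWTGY had 51 reads and was IGHV6-6 in 98.04% of them. ARHWGY, found in 7 animals, had 2795 reads in HuD4 and at most 2 elsewhere.

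Within an animal, CDR3s with tryptophan were found in another animal less often than those without, by −1.26 ± 0.685 percentage points (SD, n = 10, exact sign-flip permutation p = 0.00391). Compared at equal lengths, the order was reversed and the difference was 1.42 points (exact sign-flip permutation p = 0.00195), and with CDR3s 1 residue apart joined it was 0.357 points (p = 0.0703).

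The overlap between animals was computed from the CDR3s with tryptophan that both members of a pair held, as the geometric mean of the summed read shares. Its median was 1.90% over pairs of DNP animals, 0.943% over pairs of HuD animals and 0.415% over mixed pairs. For CDR3s without tryptophan, the medians were 2.30%, 3.135% and 1.15% in the same order. Read shares were taken over all productive reads, of which CDR3s with tryptophan held 43.0% on average in DNP and 30.1% in HuD animals. On the log10 scale, pairs of the same immunogen were higher than mixed pairs by 0.594 for CDR3s with tryptophan (one-sided exact permutation over 126 divisions, p = 0.00794, the smallest possible). For CDR3s without tryptophan this difference was 0.453 (one-sided exact permutation p = 0.00794). The pair DNP3 and DNP4 stood out with an overlap of 23.8% and 162 common CDR3s with tryptophan, and without DNP3 or DNP4, as without any other animal, the difference stayed between 0.469 and 0.729. In 66.7% of these 162 CDR3s, the lower of the 2 animals had 1 read, against 50 to 90.9% over all 45 pairs. The paper looked for reads carried between libraries through their indexes, and reports no sequence with the same UMI in more than 1 sample. Whether reads passed between libraries of the shared sequencing run, which bears on these counts of shared CDR3s, was not tested here.

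Single CDR3s were tested for reads with edgeR over all CDR3s, with and without tryptophan, that were found in at least 3 animals with at least 10 reads. Of 622 tested, 171 passed (percent called 27.5). Of the 168 with tryptophan, 58 passed, 30 higher and 28 lower in DNP animals. All 58 were at 0 reads in every animal of one group and were found in 3 to 5 animals of the other. No CDR3 passed when any animal was left out, and DESeq2 called 13 and limma 4 with tryptophan, so single CDR3s are given as reads. The number with an unadjusted p below 0.05 was 90 of the 168 in the main fit.
Found in DNP animals, 44 reads: AWDRAMDA
Found in DNP animals, 32 reads: TTWGAY
Found in DNP animals, 25 reads: ARGGYGVWFAY
Found in DNP animals, 14 reads: GRDNWGFDY
Found in DNP animals, 14 reads: ATGSSDWFAY
Found in HuD animals, 29 reads: TTNWYFDF
Found in HuD animals, 27 reads: ARHGDNYGWFAY
Found in HuD animals, 21 reads: TWEGY
Found in HuD animals, 18 reads: AREANWERYFDY
Found in HuD animals, 18 reads: TRHGIYNNYGWFAY

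Each of these 5 DNP CDR3s was found in 3 DNP animals and each HuD one in 3 or 4 HuD animals. Each therefore entered the test only through the group that held it, and its p-value is not given as support. ARGGYGVWFAY was IGHV1-43 in all of its reads, with 7, 9 and 9 reads in DNP1, DNP4 and DNP5, and resembles the ARGGDGIWFAY that led in DNP1. TWEGY was IGHV6-14 in all of its reads, with 11, 2, 5 and 3 reads in HuD1, HuD3, HuD4 and HuD5.

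The tag may lower the number of reads counted for the largest CDR3s, which was not tested. Its end varied over 6 bases, which allows 4096 different ends, and the 4264 reads of ARWTRYFDY in DNP1 used 2746 of them. These reads outnumbered the possible ends, so reads with the same end could still be counted apart. That CDR3 had 7.61 sequenced copies per read and VRWNSGHFDY 12.1. Such values were not particular to these, as the most-read CDR3 of HuD4, which lacks tryptophan, had 6061 reads on 3113 ends and 11.2 copies per read. Over all CDR3s with tryptophan, copies per read averaged 1.84 ± 0.443 in DNP and 1.39 ± 0.0998 in HuD animals (SD, n = 5 each, exact permutation p = 0.0397). Over those without tryptophan, the order was reversed, at 1.32 ± 0.159 in DNP and 1.63 ± 0.314 in HuD animals (exact permutation p = 0.0635). In copies in place of reads, the share in tryptophan-holding CDR3s differed by 23.3 points between DNP and HuD animals (exact permutation p = 0.0159) and the share with tryptophan at residue 3 by 19.1 points (exact permutation p = 0.00794).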

How the data were processed

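Splenocyte heavy chain variable domains of 10 rats were used, 1 library per animal from the same MiSeq run. Pairs were joined in PEAR by the authors, sequences with a common UMI and CDR3 section were collapsed in MIGEC, and High-VQuest gave the annotation. The sources used here name no versions of these tools. Each deposited line is 1 collapsed sequence with a count of the copies that carried its tag, and this deposited count served only as an alternative unit. Productive lines were kept, gaps were removed from the CDR3, and the first-named IGHV, IGHD and IGHJ genes were used. A CDR3 found with several genes went to the gene with most reads.

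Counts of unique CDR3s per gene (at least 10) and of reads per CDR3 were compared with edgeR 4.0.16 in R 4.3.3, with DESeq2 1.42.0 and limma 3.58.1 as alternatives, and other values by exact permutation over animals in Python 3.11.15. In a test on simulated data, edgeR recovered 12 of 12 IGHV genes changed 4-fold between CDR3s with and without tryptophan (98 genes). Of single CDR3s changed 16-fold between the immunogens it recovered 20 of 78 (622 CDR3s), and 0 of 77 at 4-fold. Of the 25 calls for IGHV genes 1 was false, and of the 22 calls for single CDR3s 2 were false. The spread between animals was set by hand in the simulation, so these figures need not hold for the real counts. Alternatives were a minimum of 2 reads, thinning to 60647 reads, joining CDR3s 1 residue apart, equal lengths, copies, other tools and filters, a replicate block and leaving out each animal.

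The CDR3s named were the 3 most-read with tryptophan of each animal, the 10 found in most animals and the 5 with the smallest p in each direction. The IGHV genes named were the 10 most used and those past the threshold with the largest change. Members, lists and this rule were chosen with earlier results of these data known, and CDR3s over 14 residues are not printed. Each library is a separate rat, grouped by the labelled immunogen.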

Additional observations from a re-analysis of the deposited data

Results flagged for a closer look

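In 3 cases an animal lay far from the others of its group, among 34 groups of 5 animals examined with Dixon's ratio (critical value 0.71). Chance gives about 1 such case in 20 groups. HuD1 had tryptophan in 30.86% of its unique CDR3s, and the other HuD animals in 28.4 to 29.1%. In DNP3, CDR3s with tryptophan were 0.3144 residues longer than those without, and in the other DNP animals 1.10 to 1.29 residues longer. HuD5 had 0.149% of its reads in the form of 9 residues with ARW at the start and YFDY at the end, and the other HuD animals 0.00109 to 0.00356%.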

How the results depend on the processing

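With the replicate block, which pairs animals of the same number, the smallest exact p is 0.0625, so no difference between DNP and HuD animals could pass. The numbers mark different rats, and the correlations of their deviations were 0.053, 0.012, 0.295, 0.375 and 0.067. Under the replicate block the differences have the same size by construction, since the pairs are complete: 12.9 points for reads with tryptophan, 14.6 (reads) and 3.46 (unique) outside the J side, 12.2 (reads) and 3.16 (unique) at residue 3, 37.3 in IGHV3-1, 8.45 in other IGHV genes, 44 and 15.8 for the 10 and 100 most-read CDR3s, 2.77 for expansion, −0.0453 for position and 2.90 for the form of 9 residues. It gave 0 IGHV genes and 0 single CDR3s.

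Joining CDR3s 1 residue apart turned the unique share to −1.02 points, the difference in sharing to 0.357 points and the J-side reads to −0.0150 points. J-side reads were −0.233 points in copies, −0.932 without the 10 and −0.389 without the 100 most-read CDR3s, and −0.719 to 1.26 with animals left out. Reads with tryptophan differed by 6.70 points without the 10 most-read CDR3s. Sharing was 1.42 points at equal lengths and −0.725 points with at least 2 reads, and IGHV3-1 differed by 13.6 points at equal lengths. With animals left out, expansion ran from 2.30 to 3.25 points, other IGHV genes from 4.92 to 10.6 points and the 100 most-read from 12.3 to 19.1 points.

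Residues that had not passed changed sign: alanine −0.0449 to 0.130 points with animals left out, glutamic acid 0.0305 (at least 2 reads), 0.0730 (joined) and 0.171 (equal lengths), histidine −0.00228 and serine −0.114 (equal lengths).

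Of the 17 IGHV genes that differed with tryptophan, the count became 7 with at least 2 reads and 10 with DESeq2, and of 8 IGHD genes 15 with limma and 5 to 9 with animals left out (5 without DNP2 or HuD1). The 3 IGHV genes between immunogens became 16 with at least 2 reads, 1 with a single named gene, 10 with DESeq2, 17 with limma, 9 without a filter and 0 to 23 with animals left out. The 171 single CDR3s became 46 with DESeq2, 13 with limma, 0 with a filter of 2 animals and 5 reads (edgeR, 1197 at an unadjusted p below 0.05) and 0 with any animal left out. The cause of these changes was not tested. Small libraries limit rare CDR3s, DNP3 most.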
